A study of Mus musculus with 6 samples.

Results

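The 33 genes described here carry out fatty acid synthesis, lipid droplet storage and breakdown, and fatty acid oxidation, and were read in microglia with and without phospholipase C gamma 2, the product of Plcg2. They were found by symbol: each of the 33 symbols stood in the table of 54347 gene rows, and they fall into 7 genes of lipogenesis, 12 of droplet storage and lipolysis, 8 of beta-oxidation and 6 PPAR regulators and targets. RNA was sequenced from 3 libraries of Plcg2-/- microglia and 3 libraries of Plcg2+/+ microglia, all C57BL/6. The cells of both genotypes were grown from the forebrains of littermates at postnatal day 2 or 3, as glial cultures in serum with GM-CSF, a growth factor for macrophages. They were shaken off the astrocyte layer on day 12 or 13 and then kept 72 h or longer with little serum (1%) and less GM-CSF (0.5 ng/mL). The knockout allele, the sex of the pups and the number of animals behind a library were not given, so p-values measure the spread between these 6 libraries, which may be technical.

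Cells build fatty acids from citrate in the cytosol, esterify spare ones into triacylglycerol, and keep it in droplets coated by perilipins. Lipases release the fatty acids again, binding proteins carry them through the cell, and mitochondria take them up as carnitine esters and shorten them by beta-oxidation. Microglia, the macrophages of the brain, collect droplets when they clear myelin or age, and PPAR nuclear receptors, which fatty acids bind, switch on many genes of storage and oxidation. Phospholipase C gamma 2 splits a membrane phospholipid downstream of immune receptors, among them the lipid-sensing receptor Trem2.

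Plcg2 itself had 16.0, 16.7 and 16.1 TPM (transcripts relative to the library total, a level that allows for transcript length) in the Plcg2-/- libraries, against 45.2, 39.7 and 54.9 TPM in the Plcg2+/+ libraries, a log2 fold change of -1.45 ± 0.14 (adjusted p = 0.00141 by limma, a linear model with moderated variances on log2(TPM + 1)). Here and below ± after a log2 fold change is its standard error, and fold changes are Plcg2-/- over Plcg2+/+. The groups did not overlap, and the gene-level value does not show which exons the remaining reads came from. Transcripts encoded by the mitochondrial genome took 5.00% to 8.68% of TPM in Plcg2-/- libraries and 13.6% to 17.3% in Plcg2+/+ libraries, and the median of all 12652 genes tested lay at a log2 fold change of 0.19. After median-of-ratios scaling, which centres the libraries on a common set of genes, that median was -0.0045. The summed level of 4 Y-linked genes was 58.6, 0.783 and 0.994 TPM in Plcg2-/- libraries 1 to 3 and 0.371, 107 and 112 TPM in Plcg2+/+ libraries 1 to 3, so libraries of 1 number always differed in it. Of 10 microglia and macrophage markers, 9 had a mean of at least 1 TPM, among them Cd68. Of these 9, P2ry12, Aif1 and Fcrls were called higher in Plcg2-/- (log2 fold changes 2.03, 2.29 and 3.28) and Cx3cr1 and Itgam lower (-1.27 and -2.38), while the 10 together spanned 3210 to 3868 TPM in Plcg2-/- and 3476 to 4833 TPM in Plcg2+/+ libraries. Tmem119 was under 1 TPM on average, and Cx3cr1 spanned 0.0763 to 0.330 TPM in Plcg2-/- and 1.34 to 2.92 TPM in Plcg2+/+ libraries. Among markers of fat cells, which express several of the genes below, Adipoq and Lep were at 0 in all 6 libraries, and the 5 markers together spanned 0.0747 to 0.332 TPM in Plcg2-/- and 0.131 to 0.872 TPM in Plcg2+/+ libraries. Among the other marker lists, endothelial Kdr and astrocytic Aldh1l1 were higher and Cspg4 of the oligodendrocyte lineage lower in Plcg2-/-. No other marker of these lists was called. The 9 astrocyte markers together spanned 43.1 to 59.7 TPM in Plcg2-/- and 30.4 to 60.5 TPM in Plcg2+/+ libraries. The 8 oligodendrocyte-lineage markers together spanned 47.6 to 84.9 TPM in Plcg2-/- and 50.1 to 116 TPM in Plcg2+/+ libraries. Their highest over all libraries, Aldoc and Mbp, had means of 18.2 and 55.6 TPM in Plcg2-/- and 23.7 and 59.4 TPM in Plcg2+/+ libraries. The 5 endothelial markers together spanned 16.9 to 25.3 TPM in Plcg2-/- and 5.62 to 8.02 TPM in Plcg2+/+ libraries. Kdr alone spanned 16.0 to 24.1 TPM in Plcg2-/- and 4.29 to 7.09 TPM in Plcg2+/+ libraries. Cldn5, Pecam1, Cdh5 and Tek were each under 1 TPM on average. The part of the cells behind these marker lists in the results was not tested. In bulk RNA, fewer cells of a type and less RNA per cell cannot be told apart.

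Of the 33 lipid genes, 30 had a mean of at least 1 TPM and were tested: Fabp3, Lipe, Cpt1a and Fabp5 were higher and Dgat1 and Hilpda lower in Plcg2-/- microglia. These 4 of 30 (13.3%) compare with 15.6% of all genes called higher, and the 2 of 30 (6.67%) with 5.31% of all genes called lower (limma, adjusted p below 0.05 over 12652 genes), so the genes as a set were called about as often as the rest of the table; in either direction 6 of 30 were called, against 20.9% of all genes. The 6 called genes encode 2 binding proteins, the enzyme of the last step of triacylglycerol synthesis, a lipase, a lipase inhibitor and an enzyme of mitochondrial entry. None of the 6 lipogenic and 4 PPAR-group genes tested passed, and a difference between the groups of genes was not tested. All 3 Plcg2-/- libraries stood above all 3 Plcg2+/+ libraries for 5 of the 30 genes, against 32.4% of all genes, and below them for 4, against 10.9% of all genes; without regard to direction the groups did not overlap for 9 of 30 genes, against 43.3% of all genes. The median log2 fold change was 0.06 over the 30 genes and 0.19 over all genes tested; after median-of-ratios scaling it was -0.15 over the 30 genes.

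With the replicate number as a block, 7 of the 30 were called higher and 4 lower, against 19.6% and 6.44% of all genes; Acly, Pnpla2 and Etfdh joined the higher genes, and Scd2 and Fabp4 the lower ones. After median-of-ratios scaling 3 were called higher and 4 lower, against 7.71% and 7.85% of all genes, and the split over all genes moved to 975 higher and 993 lower, against 1971 higher and 672 lower without scaling. Fabp3, Lipe, Dgat1 and Hilpda were called under each of the 18 alternatives run, each time in the same direction. Cpt1a was called under 11 and Fabp5 under 8 of them.

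**Figure D1:**
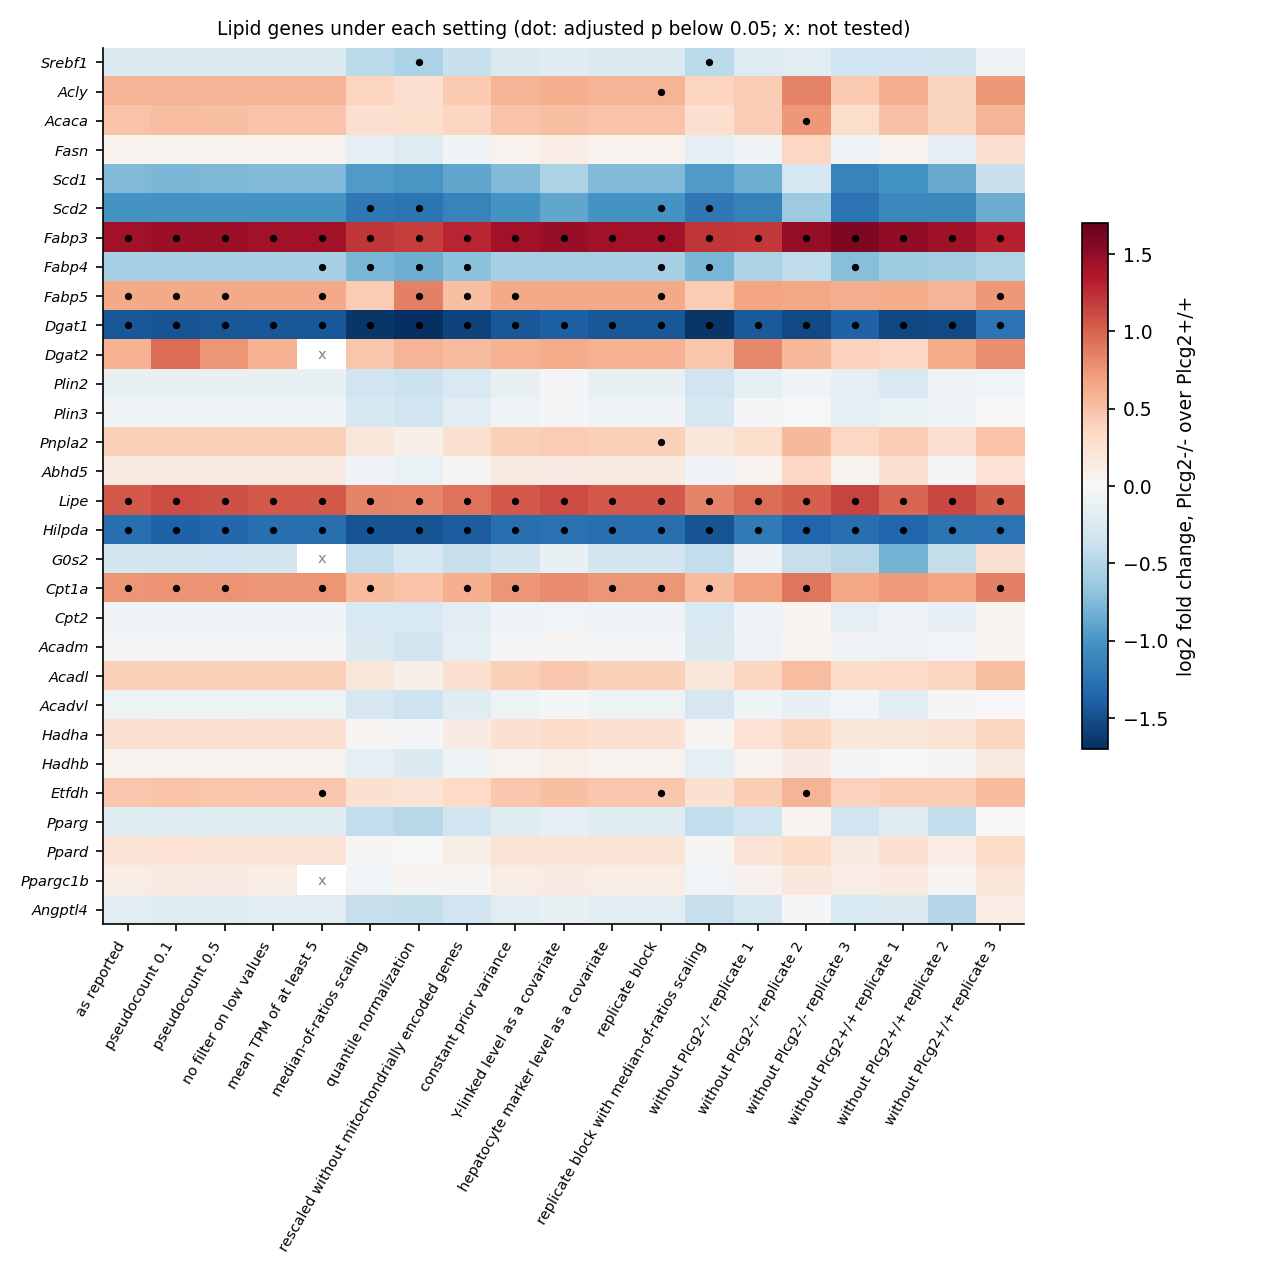
Log2 fold change, Plcg2-/- over Plcg2+/+ (colour), of the 30 lipid genes tested as reported and under the 18 alternatives, with a dot where the adjusted p was below 0.05 and a cross where the gene was not tested. Fabp3, Lipe, Dgat1 and Hilpda carry a dot in every column.

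**Figure D2:**
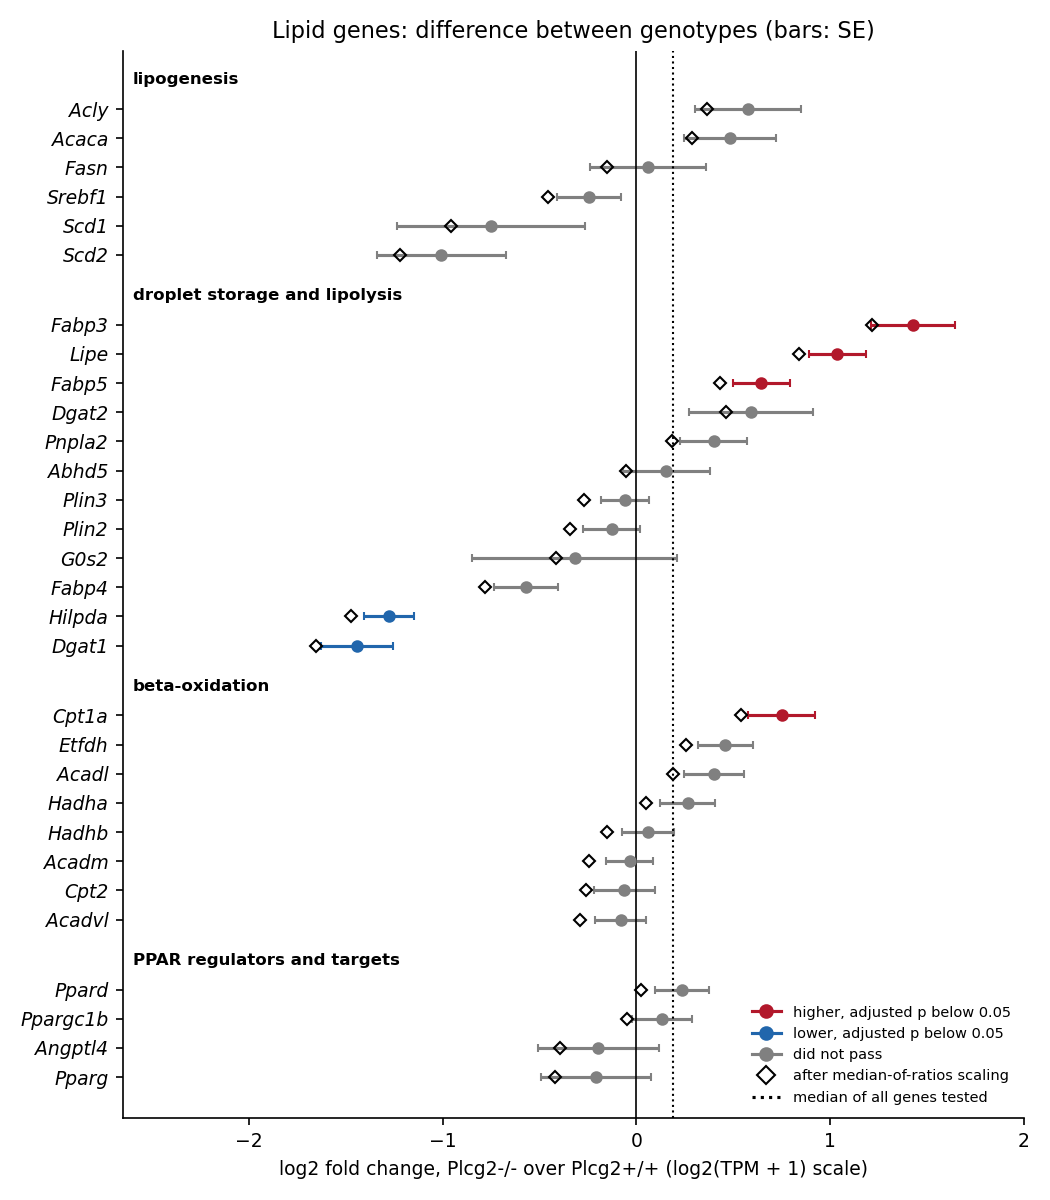
Log2 fold change on the log2(TPM + 1) scale, Plcg2-/- over Plcg2+/+, of the 30 lipid genes tested, with SE bars (3 libraries per genotype), coloured where the adjusted p was below 0.05; diamonds give the value after median-of-ratios scaling and the dotted line the median of all genes tested. The called genes run from -1.44 for Dgat1 to 1.43 for Fabp3, and 5 of the 6 belong to droplet storage and lipolysis.

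Droplet storage and lipolysis held 5 of the 6 called genes, 3 higher and 2 lower among 12, all of which were tested, against 15.6% and 5.31% of all genes. The fatty acid-binding proteins Fabp3 and Fabp5 rose, the diacylglycerol acyltransferase Dgat1 and the lipase inhibitor Hilpda fell, and the hormone-sensitive lipase Lipe rose. The droplet coat genes Plin2 and Plin3 did not pass the test. The median log2 fold change of the 12 genes was 0.05, and -0.16 after median-of-ratios scaling.

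Fabp3 (ENSMUSG00000028773.8, chr4:130308595-130315463, plus strand, GRCm38 as annotated in GENCODE M21) encodes the binding protein known from heart and muscle. It had 81.3, 53.4 and 46.9 TPM in Plcg2-/- libraries, against 24.1, 21.8 and 18.3 TPM in Plcg2+/+ libraries. Library 1 was the highest of each genotype, and the lowest Plcg2-/- value stood well above the highest Plcg2+/+ value. The log2 fold change was 1.43 ± 0.22 (limma adjusted p = 0.00689), with a ratio of mean TPM of 2.83. Of its 31-base words 37.3% also occur in other annotated genes, nearly all of them in the pseudogene Fabp3-ps1, which was listed at 0 in every library. On the opposite strand 9.84% of its exonic bases lie in Zcchc17, whose mean was 15.2 TPM in Plcg2-/- and 13.0 TPM in Plcg2+/+ libraries; the sources used here do not give the strand setting of the quantification.

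Fabp5 (ENSMUSG00000027533.10, chr3:10012548-10016607, plus strand), the epidermal type of the family, had the highest level of all 33 genes. It reached 3264, 3299 and 3509 TPM in Plcg2-/- libraries, against 2085, 1940.3 and 2438 TPM in Plcg2+/+ libraries. The groups did not overlap, and the difference of 0.65 ± 0.15 on the log2 scale passed the test (limma adjusted p = 0.0249). It no longer passed after median-of-ratios scaling (0.43, limma adjusted p = 0.0710), or with the block added to that scaling (0.119). Nor did it pass with Y-linked level as a covariate (0.0742) or without a filter on low values. The call was also lost without any 1 of 5 libraries: Plcg2-/- 1, 2 or 3 (adjusted p = 0.0934, 0.0629 and 0.0950) or Plcg2+/+ 1 or 2 (0.102 and 0.0541). Liver transcripts were present, with 15 hepatocyte markers, a list chosen after its values were seen, summing to 101, 689 and 789 TPM in Plcg2-/- and 112, 572 and 854 TPM in Plcg2+/+ libraries. With that level as a covariate Fabp5 had an adjusted p of 0.0505 and the other 5 called genes stayed called. Fabp4 (ENSMUSG00000062515.3, chr3:10204088-10208576, minus strand), the adipocyte type and a near neighbour of Fabp5 on chromosome 3, went the other way without passing. Its levels were 166, 142 and 215 TPM in Plcg2-/- libraries, against 244, 247 and 275 TPM in Plcg2+/+ libraries, all 3 of the Plcg2-/- values being the lower ones. The log2 fold change was -0.57 ± 0.17 (limma adjusted p = 0.0520), and Fabp4 was called with the replicate block (adjusted p = 0.0307) and after median-of-ratios scaling (0.0147).

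Ratios between paired genes within a library were also taken, without a test. Those of Scd2 to Scd1, Lipe to Pnpla2, Plin2 to Plin3 and Pparg to Ppard overlapped between the genotypes. Those of Dgat1 to Dgat2, of Cpt1a to Cpt2 and of the binding proteins did not, and the share over all gene pairs was not computed. For the binding proteins the balance differed between the genotypes. Fabp5 stood at 19.6, 23.2 and 16.3 times the level of Fabp4 in Plcg2-/- libraries, against 8.53, 7.87 and 8.85 times in Plcg2+/+ libraries. Fabp3 stood at 0.489, 0.376 and 0.218 of the level of Fabp4 in Plcg2-/- libraries, against 0.0986, 0.0884 and 0.0663 in Plcg2+/+ libraries. Neither ratio overlapped between genotypes. That had to follow, since Fabp3 and Fabp5 stood higher and Fabp4 lower in all 3 Plcg2-/- libraries than in any Plcg2+/+ library. The ratios are therefore no separate result, though a ratio within a library does not move with its scaling. The encoded proteins share 63.9% of aligned residues between Fabp3 and Fabp4, 50.4% between Fabp4 and Fabp5, and 45.2% between Fabp3 and Fabp5, as translated from the GENCODE M21 coding sequences.

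Dgat1 (ENSMUSG00000022555.12, chr15:76502015-76511953, minus strand), which joins a fatty acid to diacylglycerol in the last step of triacylglycerol synthesis, had 28.7, 33.05 and 26.7 TPM in Plcg2-/- libraries, against 70.1, 72.2 and 108 TPM in Plcg2+/+ libraries. The highest Plcg2-/- library stayed below the lowest Plcg2+/+ library by a wide margin. The log2 fold change was -1.44 ± 0.19 (limma adjusted p = 0.00377), and Plcg2+/+ microglia held 2.82 times the mean level of Plcg2-/- microglia. Dgat2, an unrelated enzyme for the same step, was low in both genotypes, at 1.34, 2.32 and 3.22 TPM in Plcg2-/- and 0.520, 1.23 and 1.81 TPM in Plcg2+/+ libraries. Its groups overlapped (log2 fold change 0.59 ± 0.32, limma adjusted p = 0.223). Dgat1 exceeded Dgat2 by 8.32 to 21.4 times in Plcg2-/- libraries and by 58.5 to 135 times in Plcg2+/+ libraries. The value of 135 came from Plcg2+/+ library 1, where Dgat2 was at 0.520 TPM. Dgat1 alone already separated the genotypes, so this ratio is no separate result.

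Hilpda (ENSMUSG00000043421.8, chr6:29272488-29275446, plus strand), a small droplet protein that inhibits the triacylglycerol lipase Pnpla2 and is induced by hypoxia, had the smallest p of the 30 genes. Its level was 6.33, 7.94 and 7.15 TPM in Plcg2-/- libraries, against 16.9, 19.8 and 19.5 TPM in Plcg2+/+ libraries. The values were tight within each genotype and did not overlap (log2 fold change -1.28 ± 0.13, limma adjusted p = 0.00166). G0s2, the other inhibitor of Pnpla2 among the genes, was low, with 0.445, 1.15 and 1.39 TPM in Plcg2-/- and 0.250, 1.14 and 4.39 TPM in Plcg2+/+ libraries. Its groups overlapped, and the log2 fold change of -0.32 ± 0.53 turned to 0.26 without Plcg2+/+ library 3.

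Lipe (ENSMUSG00000003123.15, chr7:25379527-25398710, minus strand) encodes hormone-sensitive lipase, which acts on diacylglycerol and cholesteryl esters after Pnpla2 has taken the initial fatty acid. It had 21.1, 18.8 and 15.7 TPM in Plcg2-/- libraries, against 7.83, 9.66 and 7.93 TPM in Plcg2+/+ libraries. Every Plcg2-/- value lay above every Plcg2+/+ value (log2 fold change 1.04 ± 0.15, limma adjusted p = 0.00574), a ratio of mean TPM of 2.18. Pnpla2 had 128, 88.5 and 118 TPM in Plcg2-/- and 86.2, 71.3 and 93.5 TPM in Plcg2+/+ libraries. Its groups overlapped through Plcg2-/- library 2 (log2 fold change 0.40 ± 0.17, limma adjusted p = 0.141), and it was called with the replicate block (adjusted p = 0.0472), being higher in Plcg2-/- in each numbered pair. After median-of-ratios scaling its log2 fold change was 0.19, and it was not called with the block on that scale (adjusted p = 0.253). Abhd5, the protein that activates Pnpla2, had 53.8, 35.9 and 54.8 TPM in Plcg2-/- and 48.9, 32.1 and 48.4 TPM in Plcg2+/+ libraries (log2 fold change 0.16 ± 0.23, limma adjusted p = 0.651, and -0.06 after median-of-ratios scaling).

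Plin2, the coat protein of most droplets in cells other than fat cells, was the second most abundant of the 33 genes. It had 498, 431 and 504 TPM in Plcg2-/- and 437, 556 and 579.6 TPM in Plcg2+/+ libraries, and the groups overlapped (log2 fold change -0.13 ± 0.15, limma adjusted p = 0.567). Plin3, which coats small new droplets, spanned 42.1 to 52.3 TPM in Plcg2-/- and 43.9 to 51.5 TPM in Plcg2+/+ libraries. A p above the threshold does not show that levels were alike.

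**Figure D3:**
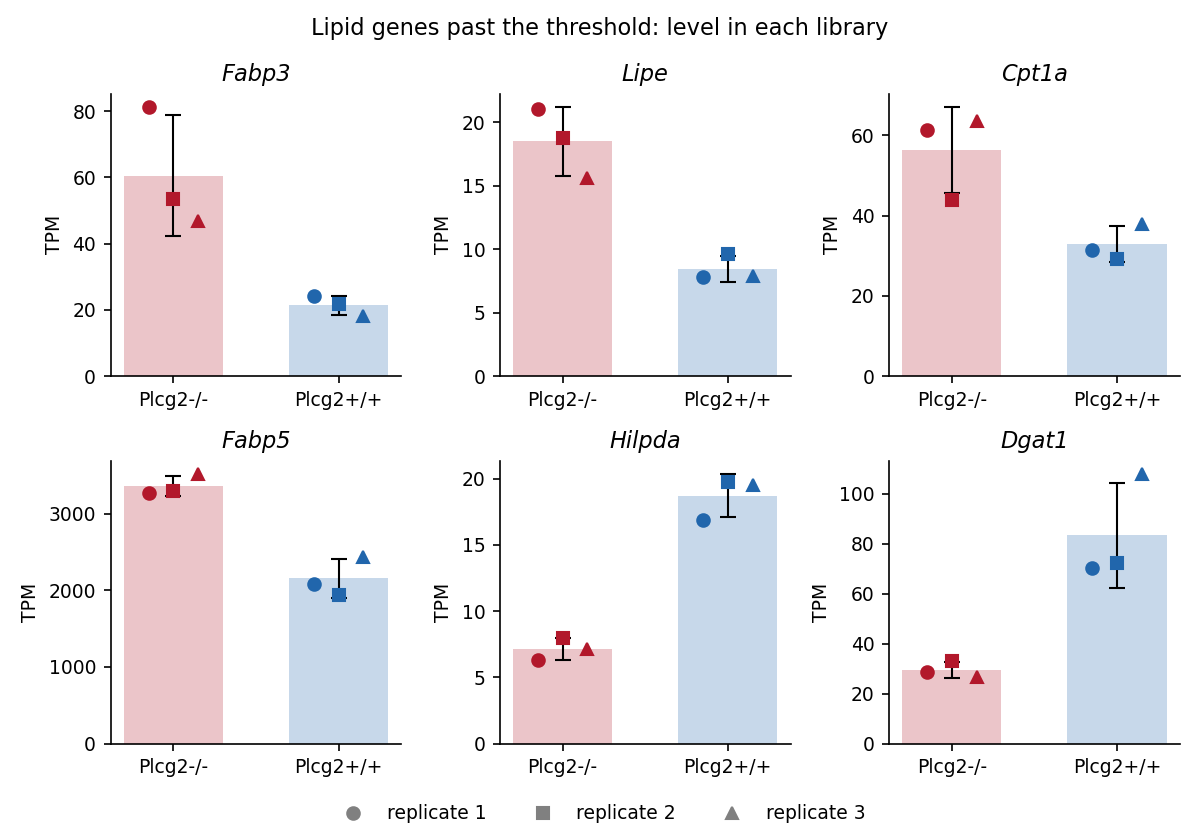
Level in TPM of the 6 lipid genes past the threshold in each library, with bars for the mean and error bars for the SD of 3 libraries; symbols mark the replicate number. For each gene the 3 Plcg2-/- points and the 3 Plcg2+/+ points do not overlap, as for Hilpda with 6.33 to 7.94 TPM in Plcg2-/- against 16.9 to 19.8 TPM in Plcg2+/+.

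Promoter windows from RefSeq (GRCm38.p6, 250 bases before to 50 after a start site) were held for 25 of the 33 genes, 31 windows in all, and 4 of the 6 called genes were among them. They are printed here, with Plin2, to show what the called genes carry at their RefSeq start sites. Each line gives the 250 bases before the start, 5′ to 3′ on the gene's strand. The Lipe and Cpt1a windows lie wholly, and the Fabp3 window partly, inside the GENCODE M21 spans given for these genes. Capitals mark matches, on either strand and whole within the printed bases, to the E-box CACGTG, to the CCAAT box, to the GC box GGGCGG or, in Plin2 alone, a DR1 element of the kind that PPAR and RXR bind. Lipe and Hilpda had a further window each, not printed. The DR1 search took a pair of AGGTCA copies 1 base apart with at most 2 mismatches over the 12 letters.
Fabp3, chr4:130308488-130308737, plus strand: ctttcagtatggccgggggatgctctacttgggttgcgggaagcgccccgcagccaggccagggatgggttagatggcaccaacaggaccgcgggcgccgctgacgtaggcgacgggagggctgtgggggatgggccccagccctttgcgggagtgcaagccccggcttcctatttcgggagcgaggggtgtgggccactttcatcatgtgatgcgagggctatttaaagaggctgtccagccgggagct
Lipe, chr7:25395988-25396237, minus strand: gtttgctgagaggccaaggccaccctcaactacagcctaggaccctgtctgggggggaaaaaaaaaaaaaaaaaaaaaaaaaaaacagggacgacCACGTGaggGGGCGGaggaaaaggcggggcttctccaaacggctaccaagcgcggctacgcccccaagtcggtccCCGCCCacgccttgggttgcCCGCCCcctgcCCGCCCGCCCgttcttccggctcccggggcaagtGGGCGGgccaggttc
Hilpda, chr6:29272238-29272487, plus strand: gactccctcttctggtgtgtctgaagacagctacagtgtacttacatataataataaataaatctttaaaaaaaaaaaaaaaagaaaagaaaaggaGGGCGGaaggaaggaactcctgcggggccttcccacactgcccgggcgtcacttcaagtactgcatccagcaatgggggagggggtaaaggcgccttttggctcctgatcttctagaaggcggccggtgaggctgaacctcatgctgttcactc
Cpt1a, chr19:3323051-3323300, plus strand: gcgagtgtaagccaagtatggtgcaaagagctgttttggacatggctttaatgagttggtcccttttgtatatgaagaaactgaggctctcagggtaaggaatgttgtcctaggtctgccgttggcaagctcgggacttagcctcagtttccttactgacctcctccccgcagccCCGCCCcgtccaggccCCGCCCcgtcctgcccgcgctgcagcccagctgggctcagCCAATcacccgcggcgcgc
Plin2, chr4:86670060-86670309, minus strand: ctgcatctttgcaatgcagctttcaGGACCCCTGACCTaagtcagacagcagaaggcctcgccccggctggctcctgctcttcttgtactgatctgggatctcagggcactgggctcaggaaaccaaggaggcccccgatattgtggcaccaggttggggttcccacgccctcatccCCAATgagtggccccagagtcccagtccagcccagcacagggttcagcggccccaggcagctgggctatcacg
The Fabp3 window held none of these motifs, Lipe an E-box and several GC boxes, Hilpda a GC box, and Cpt1a a CCAAT box and GC boxes. A DR1 match was found in 1 of the 31 windows, that of Plin2, AGGTCAGGGGTCC at chr4:86670272-86670284 on the strand opposite to the gene, against 3.86% of all 32851 windows. A GC box was found in 21 of the 31 windows, against 35.7% of all windows, and a CCAAT box in 12 of 31, against 37.4% of all windows. E-boxes were found in 2 of 31, of Lipe and Plin2 (7.15% of all windows), a DR4 element (AGGTCA copies 4 bases apart, the LXR type) in 1, of Acadvl (3.02%), and the sterol regulatory motif TCACNCCAC in 0 (1.24%). A match is a run of letters and not a measured binding site, and a window without a match says nothing of elements farther away.

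Among the 8 genes of beta-oxidation, all of which were tested, Cpt1a was higher in Plcg2-/- microglia and no gene was lower (limma; 12.5% and 0.0%, against 15.6% and 5.31% of all genes). At an unadjusted p below 0.05, 3 were higher and 0 lower, against 28.5% and 9.13% of all genes. The remaining 7 enzymes had log2 fold changes from -0.08 to 0.46 and did not pass, and the median of the 8 was 0.16, close to the 0.19 of all genes tested. After median-of-ratios scaling the median was -0.05, and Cpt1a was still the 1 gene called.

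Cpt1a (ENSMUSG00000024900.5, chr19:3322334-3385733, plus strand; window printed above) makes the carnitine esters that enter mitochondria and is the rate-limiting step of the pathway. It had 61.4, 44.0 and 63.6 TPM in Plcg2-/- libraries, against 31.5, 29.2 and 37.9 TPM in Plcg2+/+ libraries. The lowest of the Plcg2-/- values, in library 2, was still above the highest Plcg2+/+ value. The log2 fold change was 0.75 ± 0.18 (limma adjusted p = 0.0270). It was not called without Plcg2-/- library 1 or 3 (adjusted p = 0.111 and 0.0943) or Plcg2+/+ library 1 or 2 (0.0924 and 0.0882), without a filter on low values (0.0607), after quantile normalization (0.0567), or with Y-linked level added to the model (0.0575). Cpt2, which turns the carnitine esters back inside the mitochondrion, had 11.4, 9.86 and 13.6 TPM in Plcg2-/- and 11.6, 10.8 and 14.1 TPM in Plcg2+/+ libraries, with overlapping groups (log2 fold change -0.06 ± 0.16, limma adjusted p = 0.810). The ratio of Cpt1a to Cpt2 was 5.37, 4.46 and 4.67 in Plcg2-/- libraries, against 2.72, 2.70 and 2.69 in Plcg2+/+ libraries. The 3 Plcg2+/+ ratios were almost equal, and every Plcg2-/- ratio lay above them. Cpt1a alone already separated the genotypes while Cpt2 overlapped, so this ratio is no separate result.

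Etfdh, which passes electrons from the acyl-CoA dehydrogenases to the respiratory chain, had 22.9, 18.1 and 23.8 TPM in Plcg2-/- libraries, against 14.5, 14.5 and 17.1 TPM in Plcg2+/+ libraries. The groups did not overlap, yet the difference of 0.46 ± 0.14 missed the threshold (limma adjusted p = 0.0598; 0.0379 with the replicate block). After median-of-ratios scaling the log2 fold change was 0.25, and the call with the block was lost (adjusted p = 0.176). Acadl, the long-chain acyl-CoA dehydrogenase, spanned 52.3 to 70.4 TPM in Plcg2-/- and 42.0 to 54.3 TPM in Plcg2+/+ libraries (log2 fold change 0.40 ± 0.15, limma adjusted p = 0.108). The medium-chain Acadm spanned 42.5 to 51.5 TPM in Plcg2-/- and 45.3 to 53.3 TPM in Plcg2+/+ libraries, and the very-long-chain Acadvl 40.1 to 44.7 TPM in Plcg2-/- and 37.6 to 49.4 TPM in Plcg2+/+ libraries. Acadvl shares 42.9% of its exonic bases with Dvl2 on the other strand, so its level is uncertain if reads were assigned without strand. Hadha and Hadhb, the subunits of the trifunctional protein that share a start region on chromosome 5, had mean levels of 72.7 ± 8.82 and 56.1 ± 6.67 TPM in Plcg2-/- and 60.4 ± 8.30 and 53.8 ± 6.08 TPM in Plcg2+/+ libraries (SD, n = 3). Their log2 fold changes were 0.26 ± 0.14 and 0.06 ± 0.13 and neither passed.

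No gene of lipogenesis passed the limma test in either direction among the 6 of 7 tested, where 0 were higher and 1, Scd2, lower at an unadjusted p below 0.05 (0.0% and 16.7%, against 28.5% and 9.13% of all genes), and the median log2 fold change was -0.09. Acly and Acaca, which make the building blocks, had positive log2 fold changes, and the desaturases Scd1 and Scd2 and the transcription factor Srebf1 negative ones, and none of the alternatives run turned the sign of these 5. With the replicate block, Acly was called higher and Scd2 lower.

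Acly cleaves citrate to acetyl-CoA and had 123, 69.9 and 121 TPM in Plcg2-/- libraries, against 71.8, 51.1 and 84.8 TPM in Plcg2+/+ libraries. Library 2 was the lowest of each genotype, so the groups overlapped, while each numbered pair was higher in Plcg2-/-. The log2 fold change was 0.58 ± 0.27 (limma adjusted p = 0.171; 0.0223 with the replicate block). After median-of-ratios scaling it was 0.36, and the call with the block was lost (adjusted p = 0.0763). Acaca, which makes malonyl-CoA, had 12.8, 7.86 and 15.2 TPM in Plcg2-/- and 8.10, 6.79 and 9.18 TPM in Plcg2+/+ libraries (log2 fold change 0.48 ± 0.24, limma adjusted p = 0.184; 0.0400 without Plcg2-/- library 2). Of its 31-base words 33.4% also occur elsewhere, mostly in Gm5182, which did not exceed 0.146 TPM. Fasn, which assembles palmitate, had 69.1, 37.9 and 70.0 TPM in Plcg2-/- and 54.8, 40.1 and 73.4 TPM in Plcg2+/+ libraries. Its groups overlapped fully (log2 fold change 0.06 ± 0.30, limma adjusted p = 0.903). Elovl6, which lengthens palmitate, stayed under the filter at 0.412 to 1.23 TPM in Plcg2-/- and 0.320 to 0.670 TPM in Plcg2+/+ libraries.

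Scd2, the more abundant desaturase of the pair, places the double bond that makes oleate and had 223, 107 and 256 TPM in Plcg2-/- libraries, against 326, 329 and 464 TPM in Plcg2+/+ libraries. All Plcg2-/- values lay below all Plcg2+/+ values, with Plcg2-/- library 2 far below the rest. The log2 fold change of -1.01 ± 0.33 missed the threshold (limma adjusted p = 0.0733) and passed with the replicate block (0.0298) and after median-of-ratios scaling (0.0389). Scd1 had 26.8, 12.1 and 42.1 TPM in Plcg2-/- and 28.2, 35.2 and 69.5 TPM in Plcg2+/+ libraries (log2 fold change -0.75 ± 0.49, limma adjusted p = 0.302). Their proteins are identical at 86.3% of aligned residues, but only 8.14% of the words of Scd1 and 6.81% of those of Scd2 occur in another gene. Srebf1, the transcription factor that drives the pathway, had 95.1, 90.5 and 114 TPM in Plcg2-/- and 105, 106 and 146 TPM in Plcg2+/+ libraries, and the groups overlapped (log2 fold change -0.24 ± 0.17, limma adjusted p = 0.325). It passed after quantile normalization (adjusted p = 0.0447) and with the block after median-of-ratios scaling (0.0315).

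Most lipogenic and oxidation genes shared their lowest Plcg2-/- library and their highest Plcg2+/+ library. The lowest Plcg2+/+ library was less uniform. It was library 1 for 3 and library 2 for 3 of the lipogenic genes, and library 1 for 6 and library 2 for 2 of the oxidation genes. Plcg2-/- library 2 was the lowest of its genotype for 6 of 6 lipogenic genes and 7 of 8 oxidation genes, and Plcg2+/+ library 3 the highest of its genotype for 6 of 6 and 8 of 8. Over all 30 genes, these libraries were lowest for 22 (73.3%) and highest for 26 (86.7%), against 46.2% and 45.8% of all genes tested. The summed level of the lipogenic genes was 551, 326 and 619 TPM in Plcg2-/- libraries, against 594, 569 and 848 TPM in Plcg2+/+ libraries, and the groups overlapped. The oxidation genes together had 383, 324 and 405 TPM in Plcg2-/- and 286, 303 and 357 TPM in Plcg2+/+ libraries, again with overlap. Counted by numbered pairs, 13 of the 30 genes were higher in Plcg2-/- in all 3 pairs, 7 were lower in all 3 and 10 were mixed (43.3%, 23.3% and 33.3%), against 45.3%, 16.5% and 38.2% of all genes tested.

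**Figure D4:**
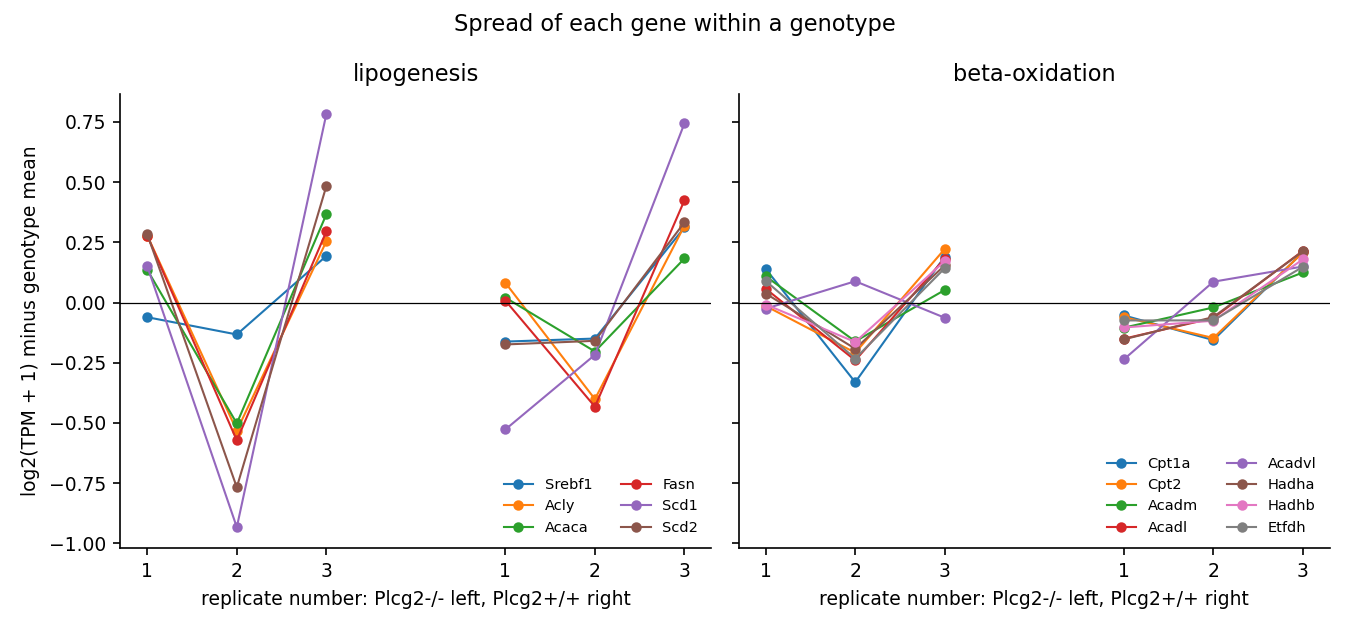
Deviation of log2(TPM + 1) from the genotype mean for the tested genes of lipogenesis and beta-oxidation in the 3 libraries of each genotype; lines only join the points of 1 gene, since replicates have no order. Plcg2-/- library 2 is lowest for 6 of 6 lipogenic and 7 of 8 oxidation genes, and Plcg2+/+ library 3 is highest for 6 of 6 and 8 of 8.

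None of the 4 PPAR regulators and targets that were tested passed limma's test, and 0 of them had an unadjusted p below 0.05, with log2 fold changes from -0.21 to 0.23. Pparg, the receptor known from fat storage, had 40.9, 23.4 and 40.5 TPM in Plcg2-/- and 38.7, 29.3 and 53.4 TPM in Plcg2+/+ libraries (log2 fold change -0.21 ± 0.28, limma adjusted p = 0.626). Ppard, the widely expressed receptor, spanned 23.7 to 29.5 TPM in Plcg2-/- and 19.2 to 24.9 TPM in Plcg2+/+ libraries (0.23 ± 0.14, limma adjusted p = 0.264). Ppara, the receptor known from liver, was listed at 0 in all Plcg2+/+ libraries and at 0.0201 to 0.0774 TPM in Plcg2-/- libraries, too low to test. The coactivator Ppargc1b spanned 4.64 to 5.73 TPM in Plcg2-/- and 3.90 to 5.23 TPM in Plcg2+/+ libraries. Of the target genes, Angptl4, an inhibitor of lipoprotein lipase, had 13.5, 9.15 and 13.0 TPM in Plcg2-/- and 12.8, 8.78 and 21.9 TPM in Plcg2+/+ libraries, and Pdk4, which turns fuel use from glucose to fatty acids, did not exceed 0.341 TPM in any library.

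The other genes of these pathways were 98 listed by hand, with 81 tested. They gave 16 higher (19.8%) and 5 lower (6.17%), against 15.6% and 5.31% of all genes. After median-of-ratios scaling they gave 4 higher and 11 lower of 81, against 7.71% and 7.85% of all genes. With the replicate block 20 were higher (24.7%) and 7 lower (8.64%), against 19.6% and 6.44% of all genes; Lpin1, Eci2, Crot, Ucp2 and Prkaa1 joined the higher genes, Elovl5 and Cideb the lower ones, and Nr1h2 was lost. The largest differences were in uptake, where Lpl, which frees fatty acids from lipoproteins, had 368 ± 62.0 TPM in Plcg2-/- libraries, against 3343 ± 740.3 TPM in Plcg2+/+ libraries (SD, n = 3; log2 fold change -3.17, limma adjusted p = 0.000717). The fatty acid translocase Cd36 had 107 ± 23.9 TPM in Plcg2-/- libraries, against 722 ± 222 TPM in Plcg2+/+ libraries (log2 fold change -2.71, limma adjusted p = 0.00166). The brain-type binding protein Fabp7 and the transporter Slc27a1 were also lower, by log2 fold changes of -1.44 and -0.76 (limma adjusted p = 0.0105 each). Among droplet genes Ldah, Lpin2 and Rab18 were higher, by 0.67, 0.61 and 0.69, of which Ldah was called after median-of-ratios scaling. In the synthesis group Hacd2, of the elongation cycle, rose by 0.95 (limma adjusted p = 0.00624) and Acss2, which makes acetyl-CoA from acetate, by 0.62. The elongase Elovl7 fell at low levels by 1.13 on the log2 scale, with 0.809 ± 0.281 TPM in Plcg2-/- and 2.93 ± 0.239 TPM in Plcg2+/+ libraries. Hacd2 and Elovl7 stayed called after median-of-ratios scaling, and Acss2 did not (limma adjusted p = 0.0587). Of 27 other oxidation genes 4 were higher (14.8%, against 15.6% of all genes) and none lower by limma, with 9 and 0 at an unadjusted p below 0.05 (33.3% and 0.0%, against 28.5% and 9.13% of all genes), so they were called higher about as often as the rest of the table. Among those higher were the peroxisomal transporter Abcd3 and the enzymes Eci1 and Acadsb, each with a log2 fold change between 0.50 and 0.63, and none of the 27 was called after median-of-ratios scaling. Of 14 other PPAR-related genes 7 were higher (50.0%, against 15.6% of all genes) and none lower by limma, with 7 and 0 at an unadjusted p below 0.05 (against 28.5% and 9.13% of all genes), led by Pdk3, a pyruvate dehydrogenase kinase like Pdk4, with 41.4 ± 14.9 TPM in Plcg2-/- and 9.02 ± 1.51 TPM in Plcg2+/+ libraries (log2 fold change 2.03, limma adjusted p = 0.00351). The coregulators Ncor1, Ncoa1 and Ncoa2 were higher by 0.50, 1.07 and 0.48, and of the 7 genes Pdk3 and Ncoa1 were called after median-of-ratios scaling.

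**Figure D5:**
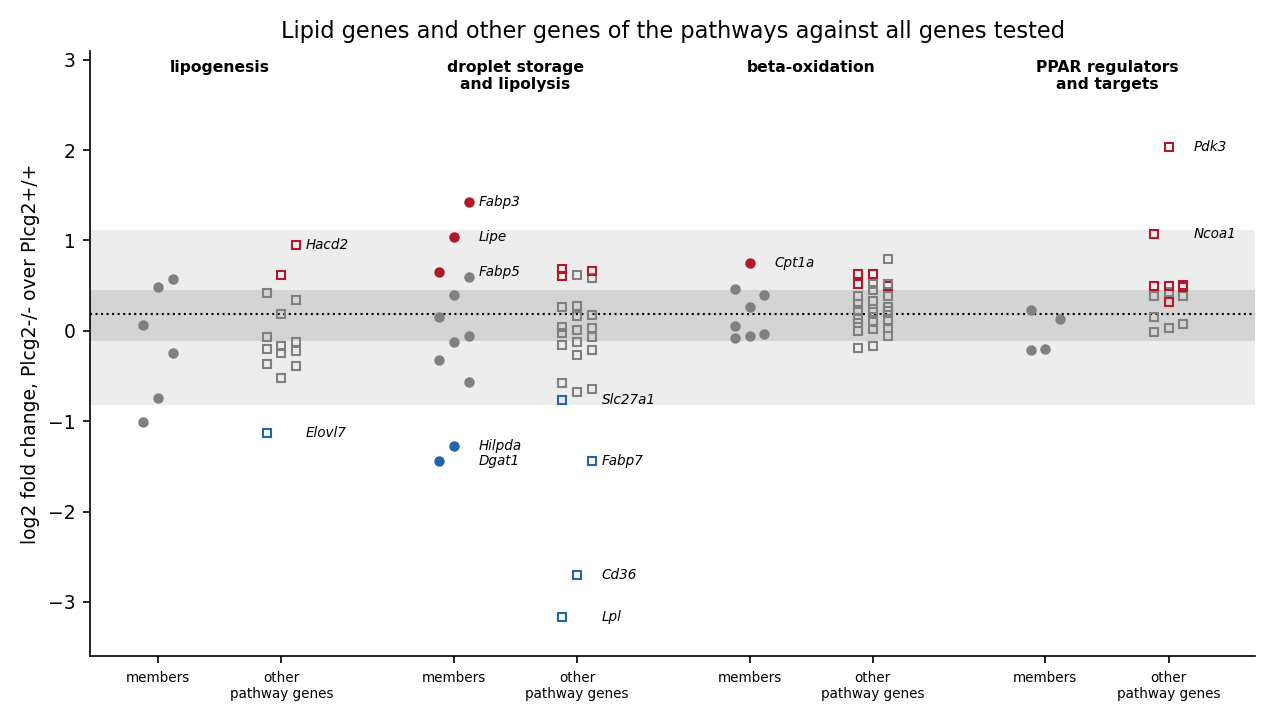
Log2 fold change, Plcg2-/- over Plcg2+/+, of the 30 lipid genes tested (filled) and 81 other pathway genes tested (open squares) by group, red for higher and blue for lower at an adjusted p below 0.05; the dotted line is the median of all 12652 genes tested and the bands hold their middle 25th to 75th and 5th to 95th percentiles. Lpl at -3.17, Cd36 at -2.71 and Pdk3 at 2.03 lie farther out than any of the 30 lipid genes, which run from -1.44 to 1.43.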

How the data were processed

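RNA was measured in 3 Plcg2-/- and 3 Plcg2+/+ libraries, grouped by the titles' genotype and replicate number. The deposited file gives TPM, which the authors had scaled so that every library totals 1000000; the depth per library is unknown, and reads were 150-bp pairs per the labels' protocols. GRCm38.p6 is the build and Salmon 1.3.0, R 4.0.4 and DESeq2 1.30.1 are the tools in the submitters' processing notes; which tool did what, the annotation release and the strand setting are not stated there. GENCODE M21, matched to 54094 of the 54347 rows by identifier, gave positions.

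TPM was put on the log2(TPM + 1) scale, which understates changes of low genes, and 12652 genes, those averaging 1 TPM or more, entered a two-sided test with limma 3.58.1 under R 4.3.3 (mean-dependent prior variance), with Benjamini-Hochberg adjustment over all of them and a threshold of 0.05. The 33 genes, the lists and the tests were chosen with earlier results of these data known. All 33 were to be named, with up to 4 higher and 4 lower called genes of each group of other pathway genes, by smallest p; a gene this rule names is not reported here. Deviations from the genotype means correlated at 0.295, 0.193 and 0.147 between same-numbered libraries, over the limit of 0.1 in every pair, so a fit with the replicate number as a block is given where it changes a call. The alternatives were 2 pseudocounts, 2 filters, 3 scalings, a constant prior, the Y-linked level as a covariate, the block with and without scaling, each library left out, and, added after seeing the data, the hepatocyte marker level as a covariate. The fit was tested on simulated data. Words of 31 bases and exon overlaps came from GENCODE M21 transcripts, protein identities from global alignments of translated coding sequences (Biopython 1.88), promoters from RefSeq (GRCm38.p6); pandas 2.3.3 and matplotlib 3.10.9 were used.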

Additional observations from a re-analysis of the deposited data

How the results depend on the processing

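The depth that each library reached is unknown, and 3 libraries per genotype limit every call. Of the lipid genes, 4 were called higher as reported, 2 without a filter on low values, 2 with Y-linked level as covariate, 7 with the replicate block and 2 to 5 without 1 library. The 2 called lower became 4 after median-of-ratios scaling, 5 by quantile normalization, 4 with the replicate block and 5 with the block and median-of-ratios scaling. Over all 12652 genes these settings gave 993, 1031, 815 and 1127 lower, against 672 as reported. In lipogenesis the block gave 1 higher and 1 lower, leaving out 1 library 0 to 1 higher, median-of-ratios scaling 1 lower, quantile normalization 2 lower, and block and scaling together 2 lower. In beta-oxidation the 1 higher gene became 0 without a filter, 2 with a minimum mean of 5 TPM, 0 by quantile normalization, 0 with the Y-linked covariate, 2 with the replicate block and 0 to 2 without 1 library. Counts for droplet genes and PPAR genes stayed within 1.5 times. All genes called higher numbered 1971 as reported, 1226 without a filter, 975 after median-of-ratios scaling, 959 by quantile normalization, 1223 rescaled without mitochondrially encoded genes, 941 with the Y-linked covariate, 1104 with the block and median-of-ratios scaling, and 559 (without Plcg2-/- library 1) to 2106 without 1 library. All genes called lower numbered 672 as reported, 1031 by quantile normalization, 411 with the Y-linked covariate, 1127 with the block and median-of-ratios scaling, and 276 to 644 without 1 library. Other pathway genes called higher numbered 16 as reported, 9 without a filter, 4 after median-of-ratios scaling, 5 by quantile normalization, 7 rescaled without mitochondrially encoded genes, 10 with a constant prior variance, 5 with the Y-linked covariate, 10 with the hepatocyte covariate, 6 with the block and median-of-ratios scaling, and 3 to 16 without 1 library. Other pathway genes called lower numbered 5 as reported, 11 after median-of-ratios scaling, 11 by quantile normalization, 8 rescaled without mitochondrially encoded genes and 13 with the block and median-of-ratios scaling. Of the calls made with and without the block over all genes, 2501 were shared. Genes that changed sign were all uncalled as reported. After median-of-ratios scaling, with or without the block, the log2 fold change was -0.15 for Fasn, -0.056 for Abhd5, -0.15 for Hadhb and -0.047 for Ppargc1b; by quantile normalization it was -0.22 for Fasn, -0.11 for Abhd5, -0.040 for Hadha and -0.23 for Hadhb; and rescaled without mitochondrially encoded genes it was -0.071 for Fasn and -0.073 for Hadhb. With the Y-linked covariate Acadm came to 0.026. Without 1 library the range was -0.16 to 0.35 for Fasn, -0.153 to 0.000185 for Plin3, -0.039 to 0.35 for Abhd5, -0.80 to 0.26 for G0s2, -0.17 to 0.043 for Cpt2, -0.088 to 0.047 for Acadm, -0.028 to 0.15 for Hadhb, -0.42 to 0.049 for Pparg and -0.48 to 0.13 for Angptl4. The cause of these differences was not tested.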

Other observations

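Transcripts known from liver cells, singled out after their values were seen, were present in every library and did not pass the test between genotypes. All 15 hepatocyte markers looked up had a mean of at least 1 TPM and 0 were called by limma, with 0 at an unadjusted p below 0.05. Alb, serum albumin, had 16.3, 91.5 and 104 TPM in Plcg2-/- libraries and 20.7, 61.9 and 123 TPM in Plcg2+/+ libraries. Apoa2, an apolipoprotein of high-density lipoprotein, had 23.8, 188 and 188 TPM in Plcg2-/- libraries and 19.7, 65.6 and 170.4 TPM in Plcg2+/+ libraries. Fabp1, the liver-type binding protein of the Fabp family, had 9.86, 65.9 and 32.5 TPM in Plcg2-/- libraries and 6.93, 13.6 and 61.7 TPM in Plcg2+/+ libraries. The libraries numbered 1 were the lowest of both genotypes for all of these genes. Of 8 heart muscle markers 4 had a mean of at least 1 TPM, together 5.82 to 16.9 TPM in Plcg2-/- and 7.38 to 16.3 TPM in Plcg2+/+ libraries, and Myl2 and Mb were listed at 0 in all 6 libraries.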
